A study of Mus musculus with 35 samples.

Results

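Lysosomes are the acidic compartments in which cells degrade proteins, glycans and lipids taken up from outside or made inside the cell. Their genes were followed while mouse ES cells were turned into primitive endoderm (PrE) by the transcription factor GATA6. The members were chosen by name: every symbol made of Cts and 1 letter (18 cathepsins), every symbol starting with Atp6v (25), and 20 further lysosome genes listed by name. These made 63 members of 44853 genes. The tested cells were KH2 ES cells of mixed C57BL/6 x 129/Sv origin with a single-copy GATA6 transgene carrying 3 HA tags, expressed on addition of doxycycline (Dox). They were sampled before Dox (0 h) and after 16, 24, 48, 72, 96 and 168 h in Dox at 1 µg/mL, with 3 libraries each. The 0 h cells carry the transgene too, and which clone of the line gave the time course is not given in the sources used here. XEN cells, a line derived from the extra-embryonic endoderm and used as the reference for PrE, came from the wild type line X10 of strain CD1 and gave 2 libraries, so cell type and strain cannot be told apart in any comparison with them. They had no Dox and were grown without LIF, so against 168 h the Dox treatment cannot be told apart from cell type either. A second table held 12 libraries of clone G6.3 after 48 h of Dox, 6 nucleofected with a non-targeting siRNA (siCTL) and 6 with siRNA against Oct4 (siOct4), the pluripotency factor encoded by Pou5f1.

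Most cathepsins are papain-like cysteine proteases, with aspartic (Ctsd, Ctse) and serine (Ctsa, Ctsg) proteases among them. The V-ATPase, a rotary proton pump of a membrane sector (V0) and a cytosolic sector (V1), acidifies the lysosome so that these enzymes can mature and work. The helix-loop-helix factors TFEB and TFE3 bind a CACGTG core (the E-box) in promoters of many lysosome genes. Visceral endoderm, which descends from PrE, is known as an absorptive epithelium rich in endocytic vesicles and lysosomes.

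The promoters show this element directly. RefSeq promoters (GRCm38.p6, 250 bases before to 50 after each start) were matched by symbol for 51 of the 63 members, all but Atp6v0a2, Atp6v0c-ps1, Atp6v0c-ps2, Atp6v0d2, Atp6v1b2, Atp6v1c1, Atp6v1g1, Atp6v1h, Ctsb, Ctse, Ctsh and Ctsw. The palindrome CACGTG, read on both strands, stood in 17 of the 51 (33.3%), against 8.09% of 27025 genes with a promoter. Within the 80 bases upstream of the RefSeq start, 10 members called higher at 168 h of Dox held it. Shown are the 5 of these windows with at most 30 bases annotated as UTR in GENCODE M21, in lower case with CACGTG in capitals, 5′ to 3′ on the gene's strand. GENCODE places some starts further upstream, and the window of Lgmn lies wholly inside its GENCODE gene:
Atp6v0b (chr4:117887330-117887409, - strand): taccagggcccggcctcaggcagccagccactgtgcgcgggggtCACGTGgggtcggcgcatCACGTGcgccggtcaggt
Lamp1 (chr8:13159081-13159160, + strand): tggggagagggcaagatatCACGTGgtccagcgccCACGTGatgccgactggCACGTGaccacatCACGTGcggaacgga
Glb1 (chr9:114400998-114401077, + strand): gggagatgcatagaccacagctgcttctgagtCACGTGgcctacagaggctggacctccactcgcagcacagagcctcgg
Lgmn (chr12:102439093-102439172, - strand): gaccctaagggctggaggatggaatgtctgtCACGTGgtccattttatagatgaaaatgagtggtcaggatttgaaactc
Arsa (chr15:89477425-89477504, - strand): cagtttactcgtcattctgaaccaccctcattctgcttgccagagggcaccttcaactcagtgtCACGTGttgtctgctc
The promoter of Lamp1 held 4 copies in these 80 bases and those of Atp6v0b and Mcoln1 held 2. Each of the 17 members with CACGTG was higher at 168 h: they were 17 of the 30 members with a promoter that rose, and none of the 10 tested members that did not rise or of the 11 untested ones. Among all genes with a promoter, 11.7% of those that rose at 168 h and 11.7% of those tested held it. The extended TCACGTGA, which contains CACGTG, stood in 7 of 51 members (13.7%) and 1.12% of all genes. The GATA sequence AGATAA stood in 6 of 51 (11.8%), and in 12.7% of all genes with a promoter. It stood in 5 of the 30 members that rose and 1 of the other 21. Among all genes with a promoter it stood in 7.63% of those that rose and 7.89% of those tested. Within the members that rose, the median log2 difference at 168 h was 2.26 for the 17 with CACGTG and 2.43 for the 13 without it. A match is a description of letters and does not show that a factor was bound.

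Expression was deposited as TPM (a share of all transcripts, scaled to one fixed total per library, which corrects for transcript length, so levels can be set side by side between genes). Of the 63 members, 49 reached a mean of at least 1 TPM in a group and were tested: 11 cathepsins, 18 Atp6v genes and all 20 listed genes. Of these 49, 45 had a 0 h mean of at least 1 TPM, and 4 (Ctsh, Ctsj, Atp6v1c2 and Arsb) passed only through another group. The 14 untested members were Ctse, Ctsg, Ctsm, Ctso, Ctsq, Ctsr, Ctss and 7 Atp6v genes. Their highest group mean was 0.629 TPM, and 2 of them were listed at 0 in every library. A gene was called at an adjusted p under 0.05 and an absolute difference in log2(TPM + 1) above 1 (limma, over 15057 genes). This scale understates the change of genes with few TPM.

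The identity of the samples was checked on listed markers. All 16 PrE markers were called higher at 168 h and 10 of 12 pluripotency markers were lower. Gata6 is among the 16, but its TPM include the transgene, so its rise follows from the Dox and does not check identity. The summed TPM of 14 fibroblast markers ranged from 119.7 to 249.7 at 0 h, from 226 to 418 at 168 h and from 422 to 432 in XEN cells, and 8 of the 14 were higher at 168 h than at 0 h. The 11 macrophage markers summed to between 15.0 and 46.5 TPM across the Dox times, and Ptprc, which defines blood cells, had a mean of 0.00677 TPM at 168 h. The cells were grown on fibroblast feeders, removed by adsorption. The part of other cells in the results was not tested, and in bulk libraries more cells of a type and more RNA per cell cannot be told apart. A pair of libraries differed from the others of their time. At 72 h, replicate 3 correlated with replicates 1 and 2 at 0.97 and 0.972 (Pearson, across genes) while these correlated at 0.99 with each other. Its fibroblast markers summed to 378 TPM against 126 and 144. The macrophage markers summed to 45.4 and 39.4 TPM in replicates 1 and 2 against 16.3 in replicate 3. They lay between 17.6 and 19.6 TPM at 48 h and between 15.0 and 22.9 at 96 h. For Naglu and Glb1, too, replicates 1 and 2 lay above both neighbouring times, whereas for Ctsb replicate 3 lay below both. Which libraries departed from the course was not tested. At 168 h the fibroblast markers summed to 418 TPM in replicate 3 against 226 and 236. The pluripotency markers summed there to 348 TPM against 247 and 253, with Pou5f1 among them at 112 TPM against 39.1 and 39.1. The PrE markers summed to 39008 TPM in replicate 3 against 39038 and 37868.

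Most lysosome genes rose, and most from 48 h or later. At 16 h, when the PrE markers had already risen, no member was called (limma; 11 of 49 had an unadjusted p under 0.05, 6 of them higher), against 1.97% of all tested genes called higher and 0.804% lower. At 24 h Ctsl and Ctsc were higher and no member was lower (limma; of 19 members with an unadjusted p under 0.05, 16 were higher), against 3.24% and 2.44% of all genes. At 48 h 22 of 49 were higher and none lower (limma; 35 of 38 with an unadjusted p under 0.05 were higher), against 9.14% and 7.26% of all genes. At 72 h 29 were higher and 1 lower (14.7% and 11.5%). The counts were 27 and 2 at 96 h (15.4% and 14.1%) and 35 and 4 at 168 h (22.6% and 16.5%). Without replicate 3 of the same time, there were 30 and 2 at 72 h and 34 and 4 at 168 h. The median log2 difference of the tested members was 0.78 against 0.00 over all tested genes at 48 h and 1.71 against 0.09 at 168 h. Summed over the 63 members, TPM went from 2326 ± 52.9 at 0 h to 6078 ± 506 at 48 h and 12659 ± 1584 at 168 h (SD, n = 3). That is a step from 0.233% to 1.27% of all transcripts.

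By onset, 2 members were called at every time from 24 h, 23 from 48 or 72 h and 7 at 96 and 168 h or at 168 h only in the upward direction. Downward, 1 member (Atp6v0e2) was called from 72 h and 3 (Ctsw, Atp6v0a4, Tfeb) late. A further 4 (Atp6v1b2, Glb1, Naglu, Idua) were called at times that did not run on without a gap to 168 h, and 9 were not called at any time. Over all tested genes the shares were 2.0% for a rise from 24 h, 9.30% for one from 48 or 72 h and 9.69% for a later one. Downward from 48 or 72 h and late it was 7.31% and 6.05%, so the 6.12% of members that fell late lay at the share of all genes. Of all genes 54.6% were not called at any time, against 18.4% of members. Called courses that fell in no onset class made up 9.01% of all genes and 8.16% of members. The map of log2 differences shows these courses.

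**Figure D1:**
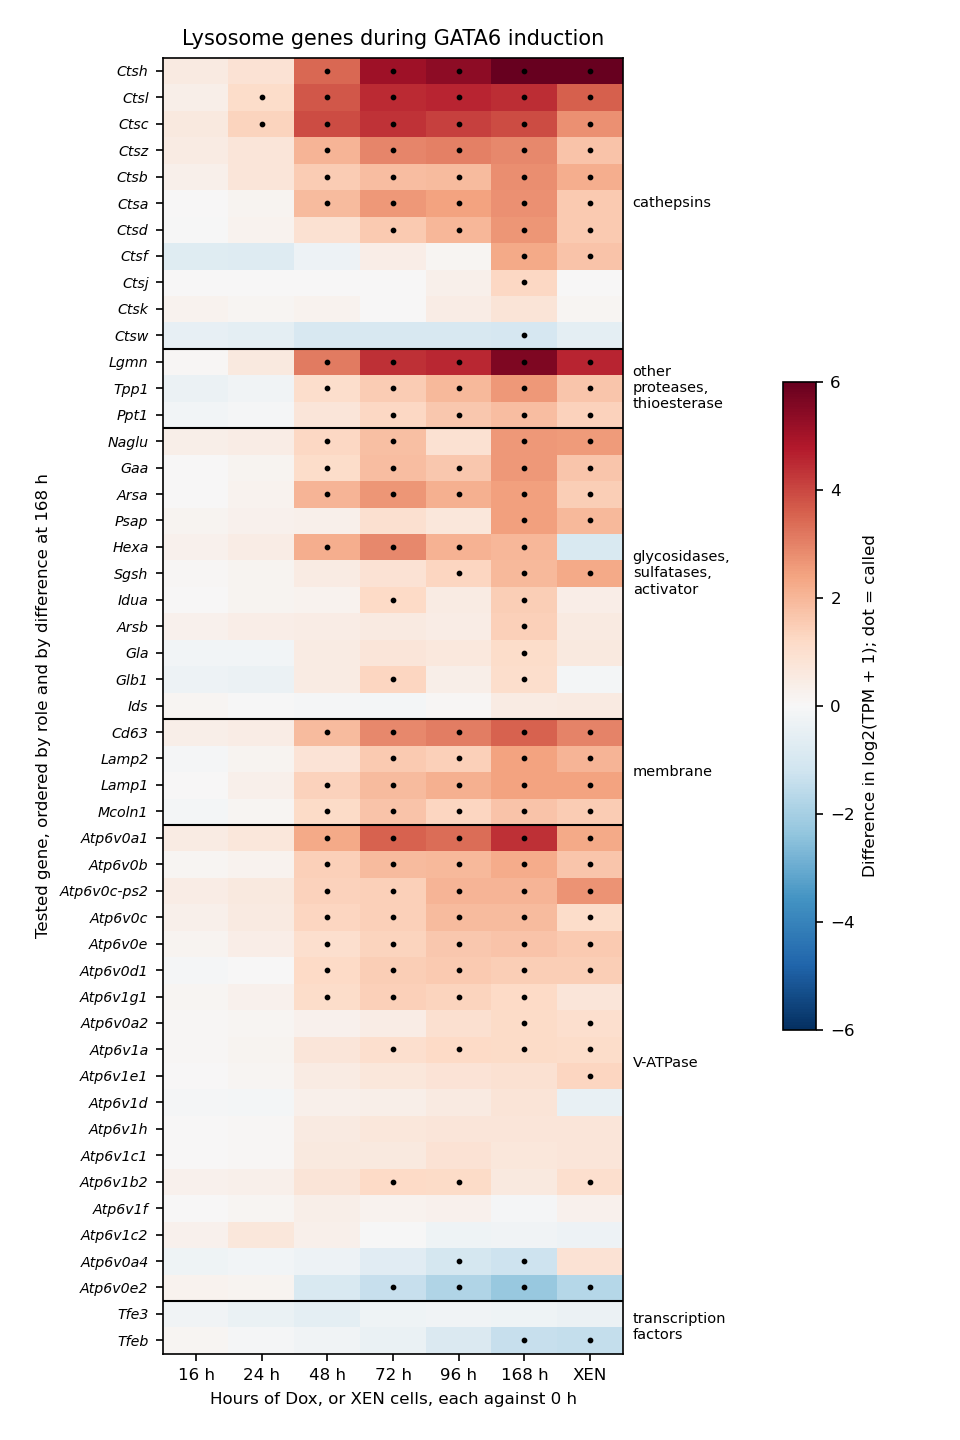
Difference in log2(TPM + 1) of the 49 tested lysosome genes (rows, grouped by role) at each Dox time and in XEN cells (columns), each against 0 h. Black dots mark called differences. Most rows are pale at 16 and 24 h and dotted from 48 or 72 h, with 35 genes higher and 4 lower at 168 h.

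Among the cathepsins the rises were led by Ctsh, Ctsl and Ctsc. Ctsl, an endoprotease of broad specificity (mm10, chromosome 13, 64359337 to 64370890), was at 75.4, 68.7 and 61.1 TPM in the 3 libraries at 0 h, 80.9, 84.8 and 92.6 at 16 h, 158, 164 and 126 at 24 h, 921, 1023 and 820.5 at 48 h, 1737, 1873 and 1147 at 72 h, then 1580.5, 1604 and 1766 at 96 h. The 24 h libraries already lay above all those at 0 h, a difference of 1.11 ± 0.16 (SE, limma adjusted p = 2.78e-05). At 168 h it was at 1772, 1552 and 1206 TPM, and in XEN cells at 828 and 805. Ctsl took 17% ± 0.791 of summed cathepsin TPM at 0 h and 49.1% ± 0.767 at 96 h (SD, n = 3), while the share of Ctsd went from 42.3% ± 1.72 to 20.1% ± 0.714.

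Ctsh, an aminopeptidase (chromosome 9, 90054152 to 90076089), had the largest difference of any member at 168 h, 7.0 ± 0.47 (SE, limma adjusted p = 1.13e-10). It was at 0.508, 0.568 and 0.507 TPM at 0 h, 20.0, 17.4 and 11.1 at 48 h, 72.5, 75.5 and 23.2 at 72 h, 60.3, 68.4 and 57.5 at 96 h, then 368, 293 and 67.2 at 168 h. Replicate 3 was far below the other libraries at both 72 and 168 h, yet above every library at 0 h, and without it the difference at 168 h was 7.75. XEN cells held 271 and 250.0 TPM. Ctsc, the dipeptidyl peptidase that activates serine proteases of blood cells (chromosome 7, 88278085 to 88310888), was at 2.31, 3.20 and 3.58 TPM at 0 h and rose by 1.36 ± 0.32 (SE, limma adjusted p = 0.00361) at 24 h. Its libraries held 103, 106 and 45.1 TPM at 72 h and 89.0, 84.6 and 28.4 at 168 h. Again replicate 3 was the lowest at both times.

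The remaining cathepsins that rose did so over different spans. Ctsd, the main aspartic protease, was at 169.7 ± 16.7 TPM at 0 h and 1072 ± 97.5 at 168 h (SD, n = 3), and was called from 72 h. Ctsz, a carboxypeptidase, went from 56.0 to 427 TPM. Ctsb, a cysteine protease, went from 33.9 to 242 TPM. Ctsa, a serine carboxypeptidase that also shields neuraminidase and beta-galactosidase in a complex, went from 53.9 to 375 TPM. Ctsz, Ctsb and Ctsa were called from 48 h. Ctsf went the other way first, with 12, 11.9 and 12.4 TPM at 0 h against 7.81, 6.41 and 6.47 at 16 h, where its difference of -0.73 (limma adjusted p = 0.0106) stayed under the fold change minimum. From 13.0 TPM at 96 h it rose to 51.4, 65.3 and 70.6 at 168 h, by 2.17 ± 0.18 (SE, limma adjusted p = 3.93e-08) over that step. Its XEN libraries held 44.4 and 39.6 TPM.

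A few cathepsins stayed near the limit of detection. Ctsj, a rodent cathepsin of the placenta, was listed at 0 in the 0 h and XEN libraries and at 0.651, 1.42 and 2.41 TPM at 168 h, a call (1.26) that was lost without 168 h replicate 3 (difference 1.00, limma adjusted p = 1.15e-05). Ctsw, known from cytotoxic lymphocytes, was at 1.33, 0.782 and 1.14 TPM at 0 h and 0, 0.0203 and 0.0203 at 168 h, and its call (-1.03) was lost without 0 h replicate 1 (difference -0.94, limma adjusted p = 1.99e-05). Ctsk, the collagenase of osteoclasts, went from 1.35 ± 0.732 to 3.16 ± 1.75 TPM, and its libraries overlapped (0.79, limma adjusted p = 0.0167). In all, 9 of 11 tested cathepsins were higher and 1 lower at 168 h.

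**Figure D2:**
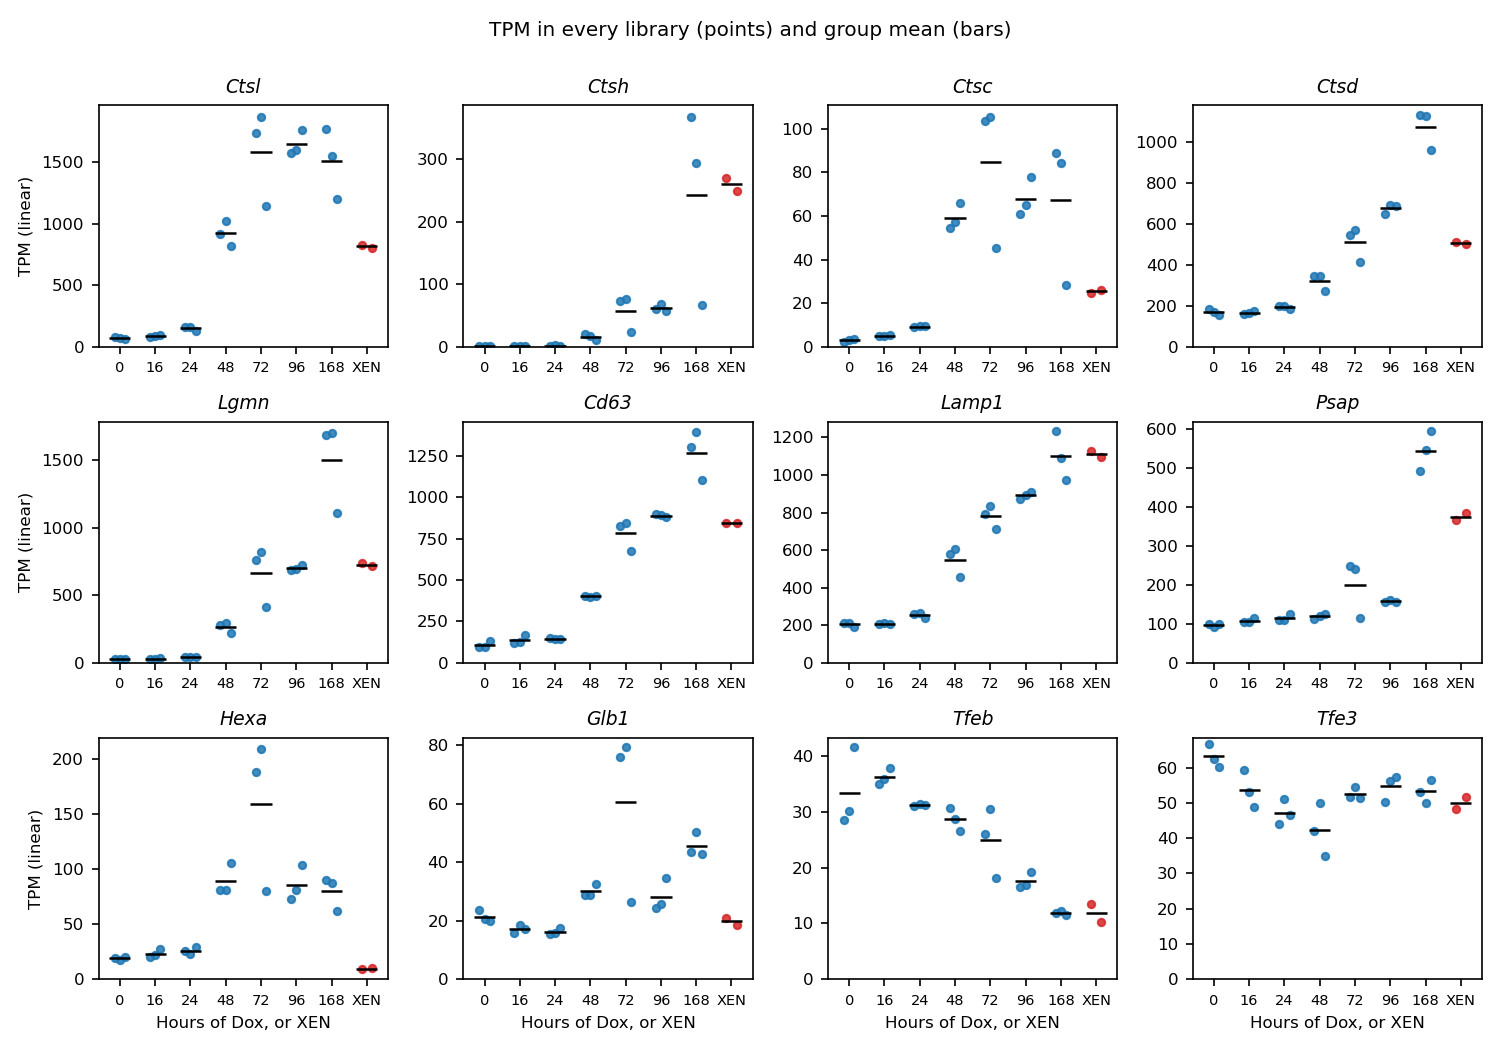
TPM of 12 lysosome genes in every library of the induction series (points, linear axes from 0; blue, Dox times in hours; red, XEN cells) with group means as bars. Ctsl, Ctsc and Lgmn climb from 24 to 48 h, Psap is highest at 168 h, Hexa peaks at 72 h and is lowest in XEN cells, and Tfeb declines; replicate 3 lies apart at 72 h in most panels.

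Of the listed genes, 2 further proteases (Lgmn, Tpp1) and the thioesterase Ppt1 rose as well. Lgmn, the asparaginyl endopeptidase that trims several cathepsins (chromosome 12, 102394084 to 102439813), was at 29.8, 31.6 and 27.4 TPM at 0 h, 46.6, 46.0 and 41.2 at 24 h, 277, 298 and 219.8 at 48 h, then 1688, 1702 and 1111 at 168 h. No library at 48 h or later came near the 0 h level, and the difference at 168 h was 5.59 ± 0.20 (SE, limma adjusted p = 5.75e-15), second only to Ctsh among the members. Between 96 and 168 h it rose further (1.07, limma adjusted p = 0.00025), a call lost without 168 h replicate 1 or 2 (0.97, limma adjusted p = 0.00204, and 0.96, limma adjusted p = 0.00229). Tpp1, a tripeptidyl peptidase, was at 29.9, 33.9 and 29.8 TPM at 0 h and 195, 174 and 204 at 168 h. Ppt1, which removes palmitate from proteins, was at 13.3, 13.7 and 11.5 TPM at 0 h and 53.3, 45.8 and 49.1 at 168 h. Both had 168 h libraries well above all those at 0 h, with differences of 2.58 and 1.87.

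Among the glycosidases, sulfatases and the sphingolipid activator, 10 of 11 were higher at 168 h and none lower, but their courses diverged in between. Naglu, which acts on heparan sulfate (chromosome 11, 101070012 to 101077672), showed a break: its libraries held 1.48, 1.53 and 1.29 TPM at 0 h, 12.3, 12 and 2.59 at 72 h, 3.44, 3.61 and 3.63 at 96 h, then 15.3, 17 and 9.96 at 168 h. Replicates 1 and 2 at 72 h lay far above replicate 3, which was below the 96 h libraries. Hexa, the alpha chain of beta-hexosaminidase (chromosome 9, 59539540 to 59565109), was at 19.6, 17.4 and 19.9 TPM at 0 h, 80.7, 81.0 and 106 at 48 h, 188, 209 and 79.6 at 72 h, 72.3, 81.3 and 103 at 96 h, then 89.9, 87.3 and 61.6 at 168 h. Its peak at 72 h also rested on replicates 1 and 2. Glb1, beta-galactosidase, followed the same course with 76.1, 79.3 and 26.4 TPM at 72 h and 24.2, 25.6 and 34.5 at 96 h. From 72 to 96 h the differences for Hexa (-0.78, limma adjusted p = 0.042), Glb1 (-0.94, limma adjusted p = 0.0215) and Naglu (-0.90, limma adjusted p = 0.0594) did not pass the fold change minimum. No member was called over this step (limma; 17 had an unadjusted p under 0.05, 10 of them higher), where 0.671% of all genes were higher and 1.04% lower. Without 72 h replicate 3, 4 members were called lower at 96 h than at 72 h.

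Gaa, the acid alpha-glucosidase that breaks down glycogen, was at 25.9, 22.4 and 20.3 TPM at 0 h and 152, 164 and 115 at 168 h. Psap, whose product is cut into the saposins, was late: it was at 101, 92.9 and 99.3 TPM at 0 h, 158, 162 and 156 at 96 h, then 493, 546 and 594 at 168 h. Here replicate 3 was the highest of the 168 h libraries, not the lowest, and the step from 96 to 168 h was 1.77 ± 0.18 (SE, limma adjusted p = 3.58e-07). Arsa, which removes sulfate from sulfatide, was called from 48 h. It was at 5.82, 5.11 and 4.70 TPM at 0 h, 47.8, 50.2 and 23 at 72 h, where replicate 3 was again low, and 35.8, 36.9 and 27.8 at 168 h. Sgsh, Idua, Arsb and Gla, 4 enzymes of glycosaminoglycan and glycolipid breakdown, were higher at 168 h by 1.96, 1.47, 1.43 and 1.09. Glb1 was higher by 1.06, a call lost without 168 h replicate 2 (0.98, limma adjusted p = 0.00653). Ids, iduronate sulfatase, went from 5.14 ± 0.706 to 7.71 ± 0.446 TPM and was not called (0.51, limma adjusted p = 0.000275). Gla and Glb1 fell below the fold change minimum when libraries were rescaled by the median of ratios, which moved the median of all genes at 168 h from 0.09 to -0.05.

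All 4 membrane proteins rose. Cd63, a tetraspanin of late endosomes (chromosome 10, 128900989 to 128912822), was at 94.4, 94.4 and 135 TPM at 0 h, 402, 400.0 and 402 at 48 h, then 1303, 1393 and 1103 at 168 h. Lamp1, a major glycoprotein of the lysosomal membrane (chromosome 8, 13159161 to 13175338) whose promoter held 4 CACGTG, was at 213, 211 and 193 TPM at 0 h, 258, 267 and 237 at 24 h, 578, 606 and 455 at 48 h, then 1232, 1092 and 973 at 168 h. The libraries at 48 h and later did not overlap with those at 0 h, and the difference at 168 h was 2.41 ± 0.094 (SE, limma adjusted p = 2.75e-14). Lamp2 was at 17, 17 and 17.5 TPM at 0 h and 97.5, 104 and 89.4 at 168 h. Mcoln1, the cation channel that releases lysosomal calcium, was at 21.8, 29.6 and 17.6 TPM at 0 h and 95.8, 66.7 and 68.3 at 168 h. Their differences at 168 h were 3.56 for Cd63, 2.43 for Lamp2 and 1.71 for Mcoln1. Lamp1 started higher than most members and gained less on the log scale than Cd63, but its level at 168 h (1099 TPM) was close to that of Cd63 (1266 TPM).

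The V-ATPase rose unevenly. Of the 25 Atp6v symbols, Atp6v0c-ps1 and Atp6v0c-ps2 are processed pseudogenes and Atp6v1fnb is a neighbour of Atp6v1f, not a subunit. At 168 h 9 of the 18 tested were higher and 2 lower, with a median log2 difference of 1.02, the lowest of the enzyme, membrane and pump groups. In the V0 sector, Atp6v0a1 (chromosome 11, 101009452 to 101063719), 1 of 4 genes for the large a subunit that steers the pump to its membrane, was at 11.6, 11.0 and 11.3 TPM at 0 h, 60.5, 63.8 and 52.2 at 48 h, 213, 225 and 60.0 at 72 h, then 302, 307 and 188 at 168 h. Replicate 3 was the lowest at 72 and 168 h, yet above all 0 h libraries, and the difference at 168 h was 4.40 ± 0.33 (SE, limma adjusted p = 3.44e-10). Atp6v0b, for the c'' subunit of the proton ring, was at 91.9, 99.6 and 86.7 TPM at 0 h and 474, 459 and 373 at 168 h. Atp6v0c, for the ring's c subunit, went from 255 ± 13.4 to 940.1 ± 49.8 TPM (SD, n = 3). Its pseudogene Atp6v0c-ps2 was listed at 65.6, 73.8 and 73.5 TPM at 0 h and 329, 277 and 291 at 168 h, values that are uncertain because reads of near-identical copies can be split between them. Atp6v0d1, Atp6v0e, Atp6v0a2, Atp6v1a and Atp6v1g1 were the other 5 that rose, by between 1.13 (Atp6v1a) and 1.70 (Atp6v0e). Atp6v1a, the catalytic A subunit, and Atp6v0a2 fell below the fold change minimum with median-of-ratios rescaling.

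Of the 9 tested genes of the cytosolic V1 sector, Atp6v1a and Atp6v1g1 were called at 168 h, which is about the 22.6% of all genes called higher. The other 7 (Atp6v1b2, Atp6v1c1, Atp6v1c2, Atp6v1d, Atp6v1e1, Atp6v1f and Atp6v1h) had differences between -0.19 and 0.92.

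At 2 positions of the pump, genes for alternative subunits went in opposite directions. Counting the 4 a-subunit genes, with Tcirg1 (a3) taken from outside the members, Atp6v0a1 held 31.7% ± 2.16 of their summed TPM at 0 h and 78.7% ± 7.37 at 168 h (SD, n = 3). At 72 h the share was 82.5%, 84.5% and 48.1% in replicates 1, 2 and 3. It was between 55.2% and 56.8% at 48 h and between 62.4% and 62.9% at 96 h. In XEN cells it was 43.4% and 40.9%, and Tcirg1 held 38.5% and 41.6%. Atp6v0a4, the a subunit of kidney and ear pumps, was low: 3.82, 1.89 and 1.21 TPM at 0 h, 0.315, 0.294 and 0.365 at 168 h and 4.78 and 4.74 in XEN cells. Its fall at 168 h (-1.24, limma adjusted p = 5.23e-05) was lost without 0 h replicate 1 (difference -0.93, limma adjusted p = 0.000338). Atp6v0e2 (chromosome 6, 48537615 to 48541801) fell while Atp6v0e rose: Atp6v0e2 was at 6.09, 6.35 and 8.92 TPM at 0 h, 3.17, 3.5 and 3.29 at 48 h, then 0.906, 0.528 and 0.629 at 168 h. Atp6v0e was at 72.5, 80.2 and 63.7 TPM at 0 h and 252, 227 and 230.3 at 168 h. Neither gene's libraries overlapped between 0 and 168 h, and Atp6v0e2 changed by -2.26 ± 0.16 (SE, limma adjusted p = 1.98e-10).

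**Figure D3:**
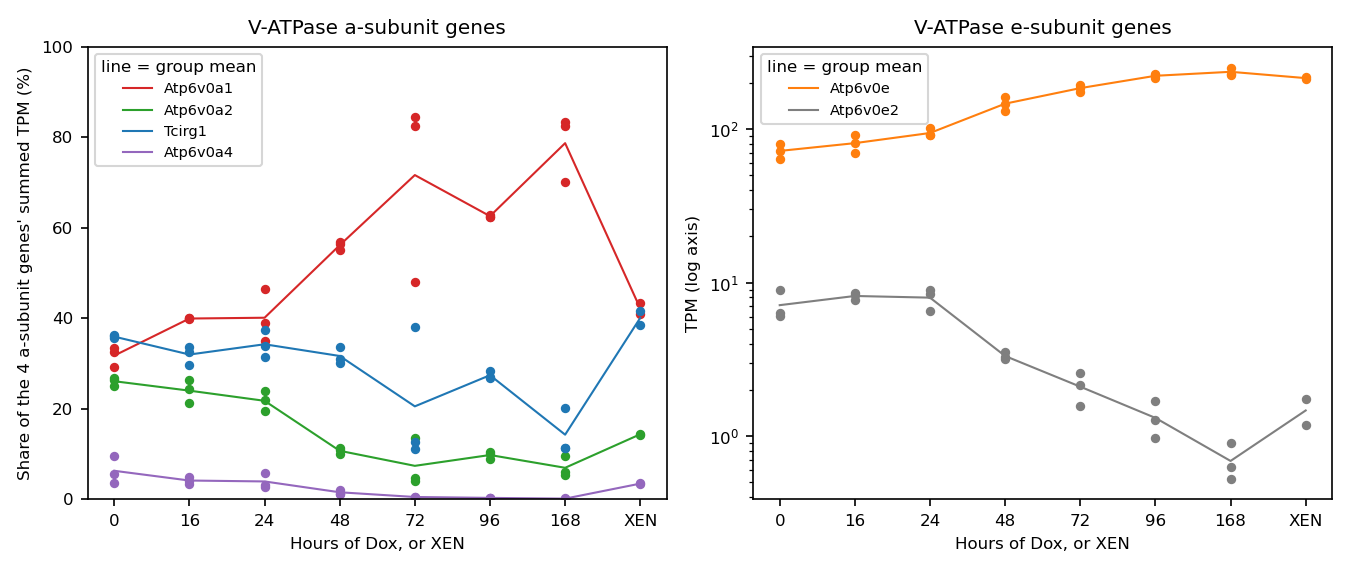
Isoform genes of the V-ATPase in every library (points) with lines through group means, over hours of Dox and in XEN cells. On the left, the share of each gene in the summed TPM of the 4 a-subunit genes (%): Atp6v0a1 goes from about 31.7% to 78.7% and stands at 42.2% in XEN cells. On the right, TPM on a log axis: Atp6v0e climbs as Atp6v0e2 declines.

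Neither transcription factor of the set rose. Tfeb (chromosome 17, 47737030 to 47792419) was at 28.5, 30.2 and 41.7 TPM at 0 h, 30.7, 28.7 and 26.6 at 48 h, 16.6, 16.8 and 19.2 at 96 h, then 11.9, 12.3 and 11.5 at 168 h. The 168 h libraries lay below all earlier ones, and the difference of -1.40 ± 0.15 (SE, limma adjusted p = 7.04e-08) was a fall. Tfe3 (chromosome X, 7762560 to 7775202) was at 66.8, 62.6 and 60.2 TPM at 0 h, 42.1, 49.8 and 35.0 at 48 h, 53.2, 50.1 and 56.6 at 168 h and 48.3 and 51.8 in XEN cells. It was not called at any time, with -0.24 at 168 h. Both factors are regulated through phosphorylation and entry into the nucleus, which TPM do not show.

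The surrounding pathway was described from further lists, likewise chosen with earlier results known. At 168 h 22.6% of all genes were higher and 16.5% lower. Of 25 tested hydrolases outside the members, 19 were higher at 168 h and 1 was lower; the rises included Lipa (acid lipase, 3.29) and Neu1 (sialidase, 3.04), and the fall was Manba (beta-mannosidase, -1.78). Of 19 membrane proteins and transporters 11 were higher and none lower, led by the cystine exporter Ctns (4.55), Tpcn1 (2.58) and the cholesterol exporter Npc1 (2.33). Among 9 accessory and assembly factors of the V-ATPase, Tcirg1 included, 5 were higher and none lower, led by Atp6ap1 (2.96). Of 16 genes that sort enzymes to lysosomes 7 were higher and none lower, led by Igf2r, the mannose-6-phosphate receptor (2.51), and by Gnptg and Gnptab, which make the mannose-6-phosphate tag (1.95 and 1.91).

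A list of 21 genes around TFEB held relatives, regulators and possible targets of it. Of these 21, 6 were higher and 2 lower at 168 h, against 22.6% and 16.5% of all genes. Tfec, a relative of Tfeb, went from 0.071 ± 0.106 TPM at 0 h to 24.6 ± 4.03 at 48 h and 13.6 ± 5.77 at 168 h (SD, n = 3), differences of 4.57 and 3.68. The Rag GTPase partner Flcn rose by 2.07 and Rragc by 1.61, whereas Rragb and Rragd, 2 other Rag GTPases, fell (-3.19 and -2.08). Inhibitors of cathepsins rose too, 3 of the 4 tested: Cst3 (4.01), Serpinb6a (2.23) and Cstb (1.84).

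In XEN cells, too, most tested members were higher than at 0 h. Against 0 h, 30 of 49 members were higher and 2 lower, where 18.9% of all genes were higher and 18.7% lower. Besides members called at 168 h, Atp6v1e1 (1.30) and Atp6v1b2 (1.03) were higher, the latter a call lost with the replicate block (0.98) and without XEN replicate 1 (0.99), and the 2 lower ones were Atp6v0e2 (-1.71) and Tfeb (-1.42). The comparison with 168 h shares those libraries. In it 1 member was higher in XEN cells and 11 lower, against 4.73% and 9.17% of all genes, and the median log2 difference of the tested members was -0.48 against -0.14 over all tested genes. Summed member TPM were 8604 and 8491 in XEN cells and 13845, 13272 and 10860.0 at 168 h, with no overlap.

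Hexa was the furthest apart: 9.42 and 9.69 TPM in XEN cells, below every library of the time course including those at 0 h, and -2.91 ± 0.28 (SE, limma adjusted p = 1.07e-07) against 168 h. Atp6v0a1 followed with 58.4 and 59.0 TPM in XEN cells (-2.12). The other lower members were Atp6v1d (-1.21), Ctsa (-1.21), Ctsc (-1.21), Ctsd (-1.07), Ctsj (-1.26), Ctsz (-1.16), Glb1 (-1.16), Idua (-1.05) and Lgmn (-1.02). Several sat just past the threshold. With median-of-ratios rescaling, which moved the median of all genes from -0.14 to -0.02, Ctsd, Ctsz, Glb1, Idua and Lgmn were no longer called and 6 remained lower. Ctsc, Idua, Lgmn and Ctsj each lost their call without at least 1 of the 5 libraries, at differences between -1.16 and -0.91. Atp6v0a4 was the member that was higher (2.12). Lamp1 (1099 against 1110.5 TPM), Ctsh (243 against 260.3 TPM) and Atp6v0d1 (145 against 145 TPM) were not called, which does not show that they were equal.

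**Figure D4:**
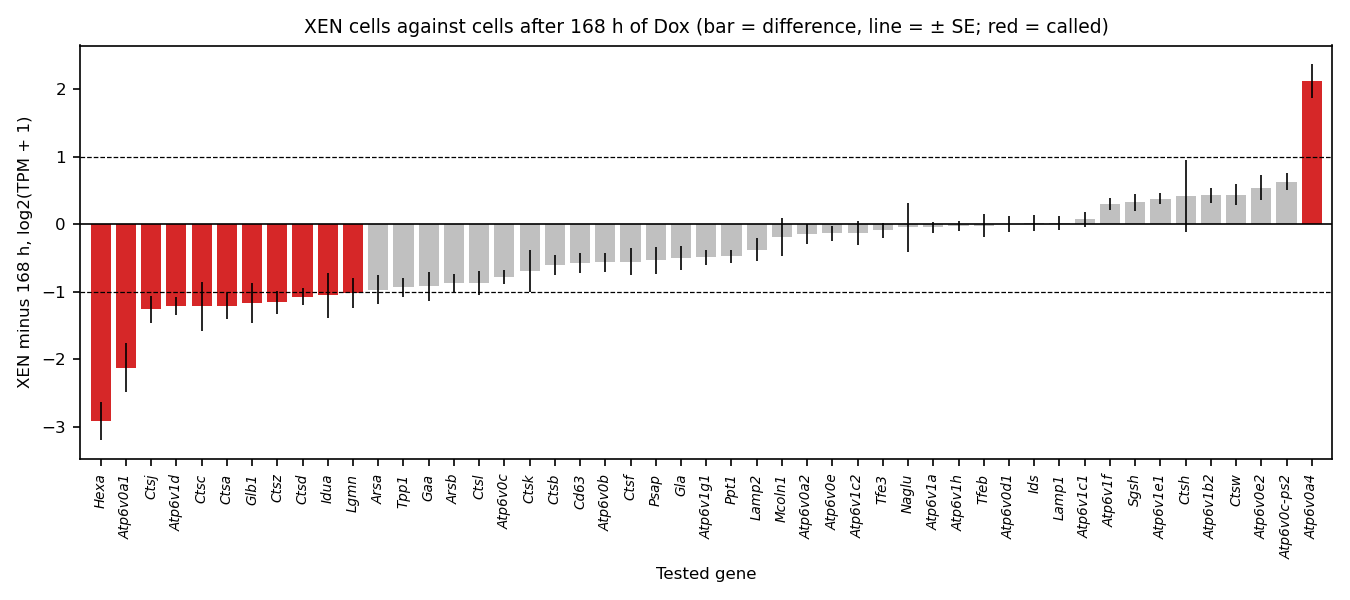
Difference in log2(TPM + 1) between XEN cells (2 libraries) and cells after 168 h of Dox (3 libraries) for the 49 tested lysosome genes, ordered by size. Bars are limma estimates, lines 1 SE to each side, dashed lines the fold change minimum, and red bars the 12 called genes. Hexa and Atp6v0a1 are lowest and Atp6v0a4 highest, and 12 of 49 bars are above 0.

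The last step of the time course was compared directly. From 96 to 168 h, 6 members rose and none fell (limma; 26 had an unadjusted p under 0.05, 22 of them higher), against 5.23% of all genes higher and 2.44% lower. They were Ctsf (2.17), Psap (1.77), Naglu (1.70), Ctsh (1.63), Lgmn (1.07) and Atp6v0a1 (1.06). The calls of Ctsh, Atp6v0a1 and Lgmn were lost without 168 h replicate 1 or without replicate 2. Those of Atp6v0a1 and Lgmn were also lost with median-of-ratios rescaling (0.93, limma adjusted p = 0.0239 and 0.94, limma adjusted p = 0.000656), that of Ctsh with only these 2 groups fitted (limma adjusted p = 0.07) and that of Atp6v0a1 at an adjusted p under 0.01, and without 96 h replicate 3 there were 10 calls. Of the 49 tested members, 28 had their highest mean at 168 h, 7 at 96 h and 7 at 72 h.

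To ask what Oct4 contributes, siOct4 libraries were set against siCTL libraries. Pou5f1 itself was at 782, 895 and 1194 TPM (lowest, median and highest of 6) with siCTL and at 282, 314 and 387 TPM with siOct4. The groups did not overlap (-1.52 ± 0.14 SE, limma adjusted p = 5.21e-05). Gata6, the induced gene, was at 121 ± 38.6 TPM with siCTL and 85.9 ± 26.4 TPM with siOct4 (SD, n = 6). Its difference had a limma adjusted p = 0.326, or 0.0503 in the paired fit, with replicate as a blocking term. These TPM count transcripts of the transgene and of the cells' own gene together. The paper measured the cells' own Gata6 by an untranslated part that the transgene lacks, and reported it lower with Oct4 knock-down. The table held only genes the authors had called responsive to GATA6, 6264 of them tested and 39 of these members, so the other 24 members were not analysed here.

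With Oct4 siRNA few lysosome genes were called lower in the main fit, though most members lay lower. Of the tested members 15.4% had a difference above 0, against 33.1% of all tested genes. The latter include genes that GATA6 raised and genes that it lowered, whereas most of these members rose with Dox. The paper reports that genes lowered by Oct4 knock-down were enriched among those raised early by GATA6. The shares and medians over all tested genes given for the siRNA series are therefore not matched for direction. A comparison with raised genes alone was not made. At an absolute difference above 0.5, 3 of 39 members were lower and none higher (limma; of 12 members with an unadjusted p under 0.05, 2 were higher), against 0.942% of all genes higher and 1.72% lower. Ctsl was at 1473, 1706 and 2003 TPM (lowest, median and highest) with siCTL and at 711, 1102 and 1186 TPM with siOct4. The groups did not overlap, all 6 numbered pairs were lower with siOct4, and the difference was -0.81 ± 0.15 (SE, limma adjusted p = 0.00788). Hexa was at 62.4, 84.0 and 106 TPM and 26.0, 39.9 and 56.8 TPM, also without overlap (-1.01 ± 0.19 SE, limma adjusted p = 0.0111). Ctsc was at 25.8, 45.5 and 82.2 TPM and 10.4, 21.2 and 27.3 TPM, where the lowest siCTL library lay within the siOct4 range although every pair was lower (-1.32 ± 0.29 SE, limma adjusted p = 0.0276). The call of Ctsc was lost without any 1 of siCTL replicates 1, 2, 5 and 6 and siOct4 replicates 3 and 4, with differences between -1.33 and -1.16 and limma adjusted p between 0.0526 and 0.0733. Without siCTL replicate 3, 5 members were called lower. That of Ctsl was lost with median-of-ratios rescaling (-0.66, limma adjusted p = 0.254), which moved the median of all genes from -0.12 to 0.01, and with a correction for gene length (-0.67, limma adjusted p = 0.221).

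Same-numbered siRNA libraries correlated at a mean of 0.33 and other numbers at -0.06, though some of the latter reached 0.46. The pair numbered 3 correlated at 0.707 and the others at 0.236 to 0.274. Some libraries of neighbouring numbers were close: Pou5f1 was at 305 and 308 TPM in siOct4 replicates 1 and 2, and at 386 and 387 TPM in 5 and 6. The paper describes 6 independent knock-downs. Whether the numbers mark 6 separate pairs was not tested, so counts of pairs and paired p-values rest on that assumption. A paired fit (replicate block) was read beside the main one. In it 6 members were lower and 2 higher, against 2.43% of all genes higher and 6.15% lower. Besides Ctsl, Ctsc and Hexa, the lower ones were Ctsh (-0.73, limma adjusted p = 0.026), Glb1 (-0.61, limma adjusted p = 0.0267) and Arsa (-0.60, limma adjusted p = 0.0287), each lower in all 6 pairs. The higher ones were Psap (0.52, limma adjusted p = 0.0343) and Atp6v0a4 (0.77, limma adjusted p = 0.0108), each higher in all 6 pairs. Psap went from 103, 133 and 160.3 TPM to 120.4, 185 and 276 TPM and Atp6v0a4 from 0.531, 1.35 and 2.23 TPM to 1.87, 3.25 and 4.57 TPM, both with overlapping groups. A further 9 members were lower in all 6 pairs without a call: Ctsz (-0.49), Ctsa (-0.47), Atp6v0d1 (-0.46, without overlap of the groups), Tpp1 (-0.44), Ppt1 (-0.40), Atp6v0c-ps2 (-0.34), Lamp1 (-0.26), Atp6v0c (-0.25) and Lgmn (-0.18). In all, 15 of 39 members were lower in every pair and 2 higher, against 13.6% and 4.71% of all tested genes. Tfeb, with -0.17, was lower in 4 pairs and higher in 2. The median log2 difference of the tested members was -0.25 against -0.12 over all tested genes.

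**Figure D5:**
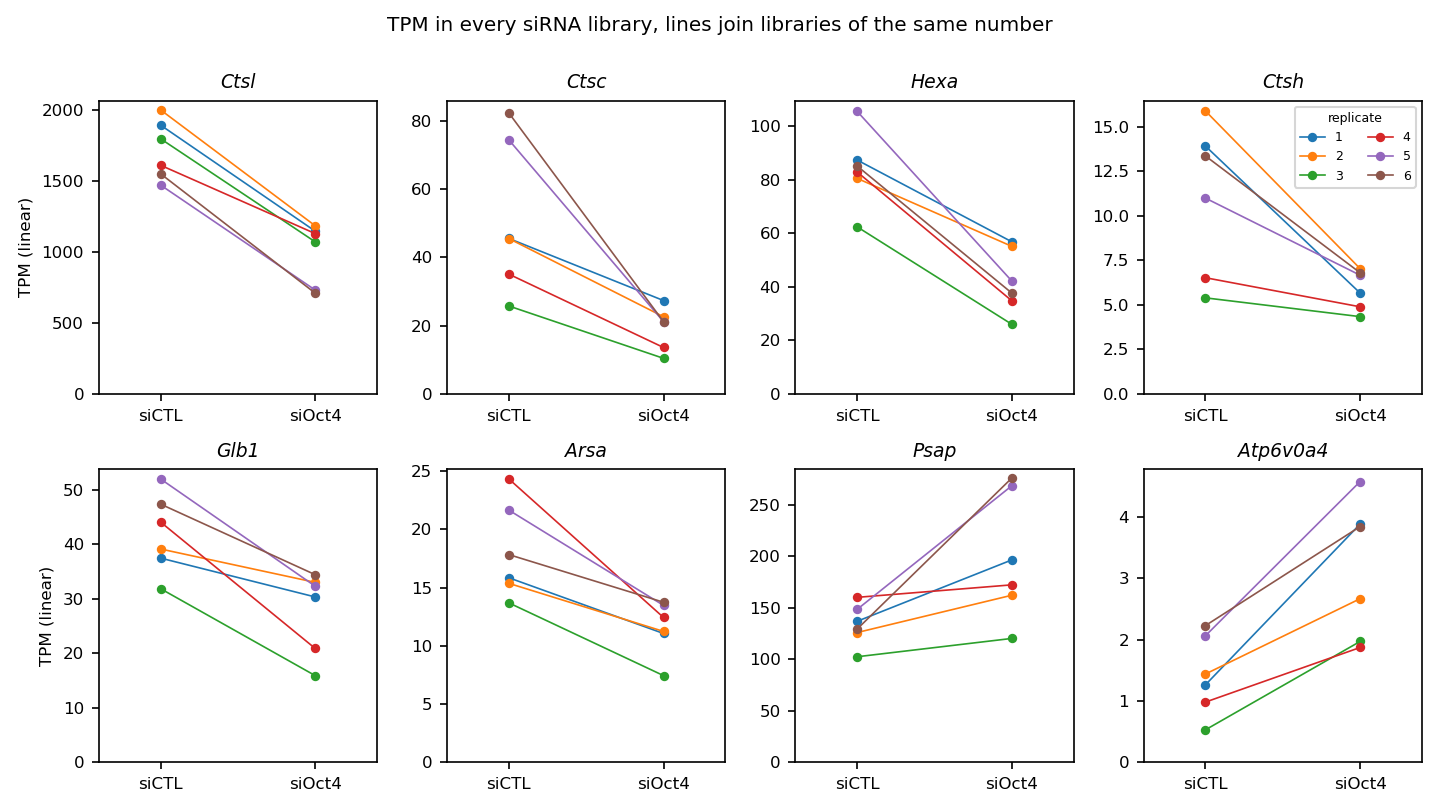
TPM (linear axes from 0) of 8 lysosome genes in the 6 siCTL and 6 siOct4 libraries after 48 h of Dox. Lines join libraries of the same replicate number. For Ctsl, Ctsc, Hexa, Ctsh, Glb1 and Arsa all 6 lines go down, and for Psap and Atp6v0a4 all 6 go up.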

How the data were processed

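The members and gene lists were chosen with earlier results of these data known. RNA-seq was done on polyA RNA of 35 libraries, 23 of the induction series and 12 of the siRNA series, grouped and numbered by the sample titles. Reads were mapped by the authors with STAR (genome mm10) and turned into gene values with RSEM, outliers in a principal component analysis were dropped, and TPM were deposited. Versions and annotation are not given in the sources used here. TPM keep no read numbers, so depth is unknown, no interval that needs it is given, and the spread between libraries is the error. The study calls the libraries independent replicates. The siRNA table holds 6275 genes and also 9 group means and text classes from the authors' own comparisons, which were not used.

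Of rows with the same symbol (60 symbols), that with the highest mean was kept. Values were taken as log2(TPM + 1), genes were tested if any group mean reached 1 TPM, and one coefficient per group was fitted with limma 3.58.1 in R 4.3.3 (lmFit, eBayes with trend and robust), with Benjamini-Hochberg adjustment over all genes. Calls needed an adjusted p under 0.05 and an absolute difference above 1 (induction) or 0.5 (siRNA). The fit was tested on simulated data. The steps from 72 to 96 h and from 96 to 168 h and the gene length correction were added after seeing the data. Positions and exon lengths are from GENCODE M21 (mm10), and promoters from RefSeq (GRCm38.p6).

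Genes named are the 20 listed genes, the tested cathepsins and the V-ATPase genes called at 168 h or in XEN cells, and from each pathway list up to 3 of the largest rises and falls at 168 h. Values in every library are given for the 3 largest rises and falls of each role and for Tfeb, Tfe3 and Lamp1. Others so described were chosen after their values were seen. A gene that the rule names among the hydrolases is not reported here. The siRNA libraries were paired by replicate number. After group means were removed, same-numbered libraries correlated at 0.236 to 0.707 in all 6 pairs, against a mean of -0.06 (from -0.56 to 0.46) between other numbers. Values of a paired fit (replicate block) are therefore given beside the main ones. Whether the numbers mark 6 separate pairs was not tested. The alternatives tried were each library left out, a replicate block, only the compared groups in the fit, rescaling by the median of ratios, a pseudocount of 0.1, a filter at 5 TPM or none, an adjusted p under 0.01 and calls without a fold change minimum.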

Additional observations from a re-analysis of the deposited data

Results flagged for a closer look

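In the siRNA series, each member's 6 libraries of a group were screened for 1 library far from the other 5, on the log2(TPM + 1) scale, at a limit that chance passes in about 1 of 20 groups. Of 78 groups 6 were marked, where chance gives 3.9. In the control group, replicate 3 was low for Atp6v1a (5.90, the others from 6.96 to 7.12) and Ctsb (7.11, the others from 7.61 to 7.88). Replicate 4 of that group was low for Atp6v1g1 (7.33, the others from 7.74 to 7.90) and high for Sgsh (2.47, the others from 1.17 to 1.32). With Oct4 siRNA, replicate 3 was low for Ctsa (6.37, the others from 6.85 to 7.11) and Arsa (3.08, the others from 3.59 to 3.88). The values of Arsa in the report include that library, and the cause of these values was not tested.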

How the results depend on the processing

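No difference tracked for a single gene changed sign under any alternative run. Of these values, 445 kept their side of the threshold and 27 lost their call. They covered a chosen part of the members and comparisons, and further calls of members were lost outside them. At 48, 72, 96 and 168 h and in XEN cells the count of higher members stayed within 1.5 times under every alternative, except 35 at 48 h without a fold change minimum. Without that minimum the counts (higher and lower, where moved) were 3 and 2 at 16 h, 14 and 3 at 24 h, 3 lower at 48 h, 5 lower at 72 h, 4 lower at 96 h, 6 lower in XEN cells against 0 h, 8 and 25 in XEN cells against 168 h, 7 and 3 at 96 against 72 h, and 21 and 4 at 168 against 96 h. A pseudocount of 0.1 gave 4 higher and 1 lower at 24 h, 2 lower at 48 h, 3 lower at 72 h, 4 lower in XEN cells against 0 h, 2 higher in XEN cells against 168 h and 1 higher at 96 against 72 h. A mean of at least 5 TPM, which tests fewer genes, left 1 lower at 96 h, 2 lower at 168 h (without Ctsw and Atp6v0a4) and 0 higher in XEN cells against 168 h. Median-of-ratios rescaling gave 2 lower at 72 h and 6 lower in XEN cells against 168 h. For siOct4, rescaling and the gene length correction, alone or with the replicate block, each gave 2 higher, the block alone 2 higher and 6 lower, and an adjusted p under 0.01 gave 1 lower. With each library left out, lower counts ranged from 0 to 1 at 48 h, 1 to 2 at 72 h, 1 to 3 at 96 h, 2 to 4 at 168 h, 0 to 4 at 96 against 72 h and 2 to 5 for siOct4 (5 without siCTL replicate 3), and higher counts from 4 to 10 at 168 against 96 h. At 168 h the 2 came without 0 h replicate 1, which also gave the 1 at 96 h. Where these left XEN cells with 1 library, it was assumed to vary like the other groups. In the induction series same-numbered libraries correlated at a mean of 0.03 (from -0.19 to 0.22), against -0.02 for other numbers. No pairing was seen, which does not show that there was none. The replicate block there gave 29 higher in XEN cells against 0 h and 12 lower against 168 h, and moved no other count. The cause of these changes was not tested. TPM give no depth, so levels under 1 TPM carry an unknown counting error.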

Other observations

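The pathway lists outside the members were also compared between XEN cells and 168 h of Dox. The genes named here were chosen after their values were seen, and 4.73% of all genes were higher and 9.17% lower in XEN cells. All 3 cathepsin inhibitors that had risen were lower in XEN cells: Serpinb6a by -1.64, Cst3 by -1.53 and Cstb by -1.05 on the log2 scale (limma calls). Among 25 hydrolases 6 were lower, with Smpd1 (acid sphingomyelinase, -1.96) and Scpep1 (-1.90) furthest, and Gm2a (the GM2 activator, which works with beta-hexosaminidase, 1.67) and Acp5 (1.44) were higher. Of 16 sorting genes Gga2 (-1.18), Igf2r (-1.11) and Gnptg (-1.02) were lower. Of 19 membrane proteins Tmem9 was higher (1.91), and Ctns (-2.16), Tpcn1 (-1.26) and Cd68 (-1.26), which is also on the macrophage list, were lower.

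Some untested members had their highest means at 168 h, all under 1 TPM. Ctso had a mean of 0.602 TPM and Ctss of 0.369 TPM there, and the placental cathepsins Ctsq and Ctsr had means of 0.179 and 0.142 TPM.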
